A study of Mus musculus with 4 samples.

Results

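Wif1, Notum, Sfrp1, Sfrp2, Sfrp4, Dkk2, Dkk3, Apcdd1, Nkd2 and Axin2, 10 genes whose products hold back Wnt signalling, were followed cell by cell in mouse skin. They were taken by symbol from the 27999 genes counted in each library, and all 10 were found in all 4 libraries. The study's title concerns mesenchymal progenitors in age-related hair loss. Cells of the hair follicle mesenchyme were sorted at 18 months, 12 months and 2 months of age and profiled by droplet RNA sequencing with 10x 3' kits, which count RNA molecules by unique molecular identifiers (UMIs).

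There were 4 libraries. The 18-month library and a 2-month library were made with version 2 of the kit (chemistry 2) from α-SMACreERT2:RosaYFP mice, and version 3 (chemistry 3) served for the 12-month library and another 2-month library, whose mice were α-SMACreERT2:RosaTDTomato. All carried a tamoxifen-inducible Cre under the smooth muscle actin promoter on C57BL/6J and had received tamoxifen on postnatal days 3 and 4, which labels cells making smooth muscle actin in the first days of life, among them the dermal sheath, and their progeny. Sorting took cells with the reporter or Cd26 that were also positive for Itga9 or Cd200, 5000 cells for each gate, and the labels give 2 mice per sample. Each chemistry had 1 older and 1 2-month library, so the intervals of ratios within a chemistry cover counting error only, and the tests across chemistries speak for these 4 libraries. Xist was at 0.104 CPM (UMIs per 1000000) in the 18-month and 0 in the 2-month chemistry 2 library, and at 849 CPM in the 12-month and 831 CPM in the 2-month chemistry 3 library, so that the Xist level went with chemistry. Xist alone cannot show whether a chemistry 3 library pooled females only or both sexes. The eYFP transcript was also counted in the libraries labelled RosaTDTomato, at 1631 CPM at 12 months and 1626 CPM at 2 months. For chemistry 2 the labels give 3776 recovered cells for 18 months and 2604 for 2 months, and the files had 2727 and 1906 barcodes, so the direction of every ratio in that pair depends on the deposited assignment of files to samples. The libraries held 21083193, 17831300, 55396394 and 77032628 UMIs at 18 months, 2 months (chemistry 2), 12 months and 2 months (chemistry 3). After filtering 2431, 1678, 3965 and 5389 cells were kept in the same order, with median depths between 6261.5 and 11933 UMIs. The 12-month and 2-month chemistry 3 files shared 84 barcodes, carried by 55 and 39 kept cells.

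Wnt proteins are lipid-modified signals that bind Frizzled receptors and the co-receptors Lrp5 and Lrp6 and so stabilise β-catenin. In the hair follicle, Wnt signalling between the dermal papilla and the overlying epithelium is needed for growth of the hair shaft, and extracellular inhibitors limit it in the resting phase. The family studied here works at several steps. Wif1 and the secreted Frizzled-related proteins Sfrp1, Sfrp2 and Sfrp4 bind Wnt outside the cell, Notum is an enzyme that removes the lipid from Wnt, and Dkk2 binds Lrp5 and Lrp6. Dkk3 is the divergent Dickkopf protein, for which a direct block of Lrp6 is not established. Apcdd1 sits in the membrane and is mutated in a human form of hereditary hair loss. Nkd2 binds Dishevelled inside the cell, and Axin2 is both a scaffold of the complex that degrades β-catenin and a widely used target gene of the pathway.

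The upstream sequences of Wif1 and Sfrp2 are shown because the levels of these secreted inhibitors differed in opposite directions between papilla-like cells with and without Sox2 in every library. They come from RefSeq (GRCm38.p6, plus strand) and end at the base before the annotated gene, 5′ to 3′, with CpG dinucleotides in capitals. The Wif1 stretch is chr10:121033754-121033959, 206 bases with 17 CpGs, and lies directly before the gene, which the GENCODE annotation places at 121033960 to 121100650 of chromosome 10. The Sfrp2 stretch is chr3:83766071-83766320, 250 bases with 16 CpGs, and lies directly before the gene at 83766321 to 83774316 of chromosome 3.
Wif1: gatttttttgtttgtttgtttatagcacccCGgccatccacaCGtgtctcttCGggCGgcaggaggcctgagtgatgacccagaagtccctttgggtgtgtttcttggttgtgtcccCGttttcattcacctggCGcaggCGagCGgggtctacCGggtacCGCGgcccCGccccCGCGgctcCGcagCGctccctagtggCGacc
Sfrp2: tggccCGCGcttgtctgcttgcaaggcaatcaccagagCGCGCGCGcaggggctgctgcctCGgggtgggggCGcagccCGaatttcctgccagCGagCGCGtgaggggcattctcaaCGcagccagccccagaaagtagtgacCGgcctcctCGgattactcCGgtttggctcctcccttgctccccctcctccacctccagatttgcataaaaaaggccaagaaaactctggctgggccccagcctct
The promoter table held 5 of the 10 genes (Wif1, Sfrp2, Dkk2, Nkd2 and Axin2). Their windows of 300 bases (250 before and 50 after the start) were searched on both strands for 3 spellings of the core letters bound by the TCF and LEF factors of the pathway. They were CTTTGAT, which is present in 3.73% of 32851 promoter windows of this length, CTTTGAA, which is present in 5.14%, and CTTTGTT, which is present in 5.85%. At least 1 of the 3 is present in 13.9% of windows, and none was found in the windows of the 5 members. The windows were rich in G and C, from 57.7% in Dkk2 to 70.0% in Axin2.

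Cells were grouped without these genes or any other Wnt gene, into classes named from marker lists, with the ending -like because they rest on RNA alone. Dermal papilla-like cells, the signalling cells under the hair bulb, numbered 473 of 2431 at 18 months (19.5%, exact binomial 95% interval 17.9% to 21.1%) and 525 of 1678 at 2 months with chemistry 2 (31.3%, 29.1% to 33.6%), and 408 of 3965 at 12 months (10.3%, 9.36% to 11.3%) and 1119 of 5389 at 2 months with chemistry 3 (20.8%, 19.7% to 21.9%). All 14 papilla markers were detected in them in each library. Dermal sheath-like cells, the contractile sleeve of the follicle, numbered 408 at 18 months and 227 at 2 months with chemistry 2, and 1775 at 12 months and 2240 at 2 months with chemistry 3. Dermal fibroblast-like cells numbered 714 and 227, and 713 and 427, in the same order.

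**Figure D1:**
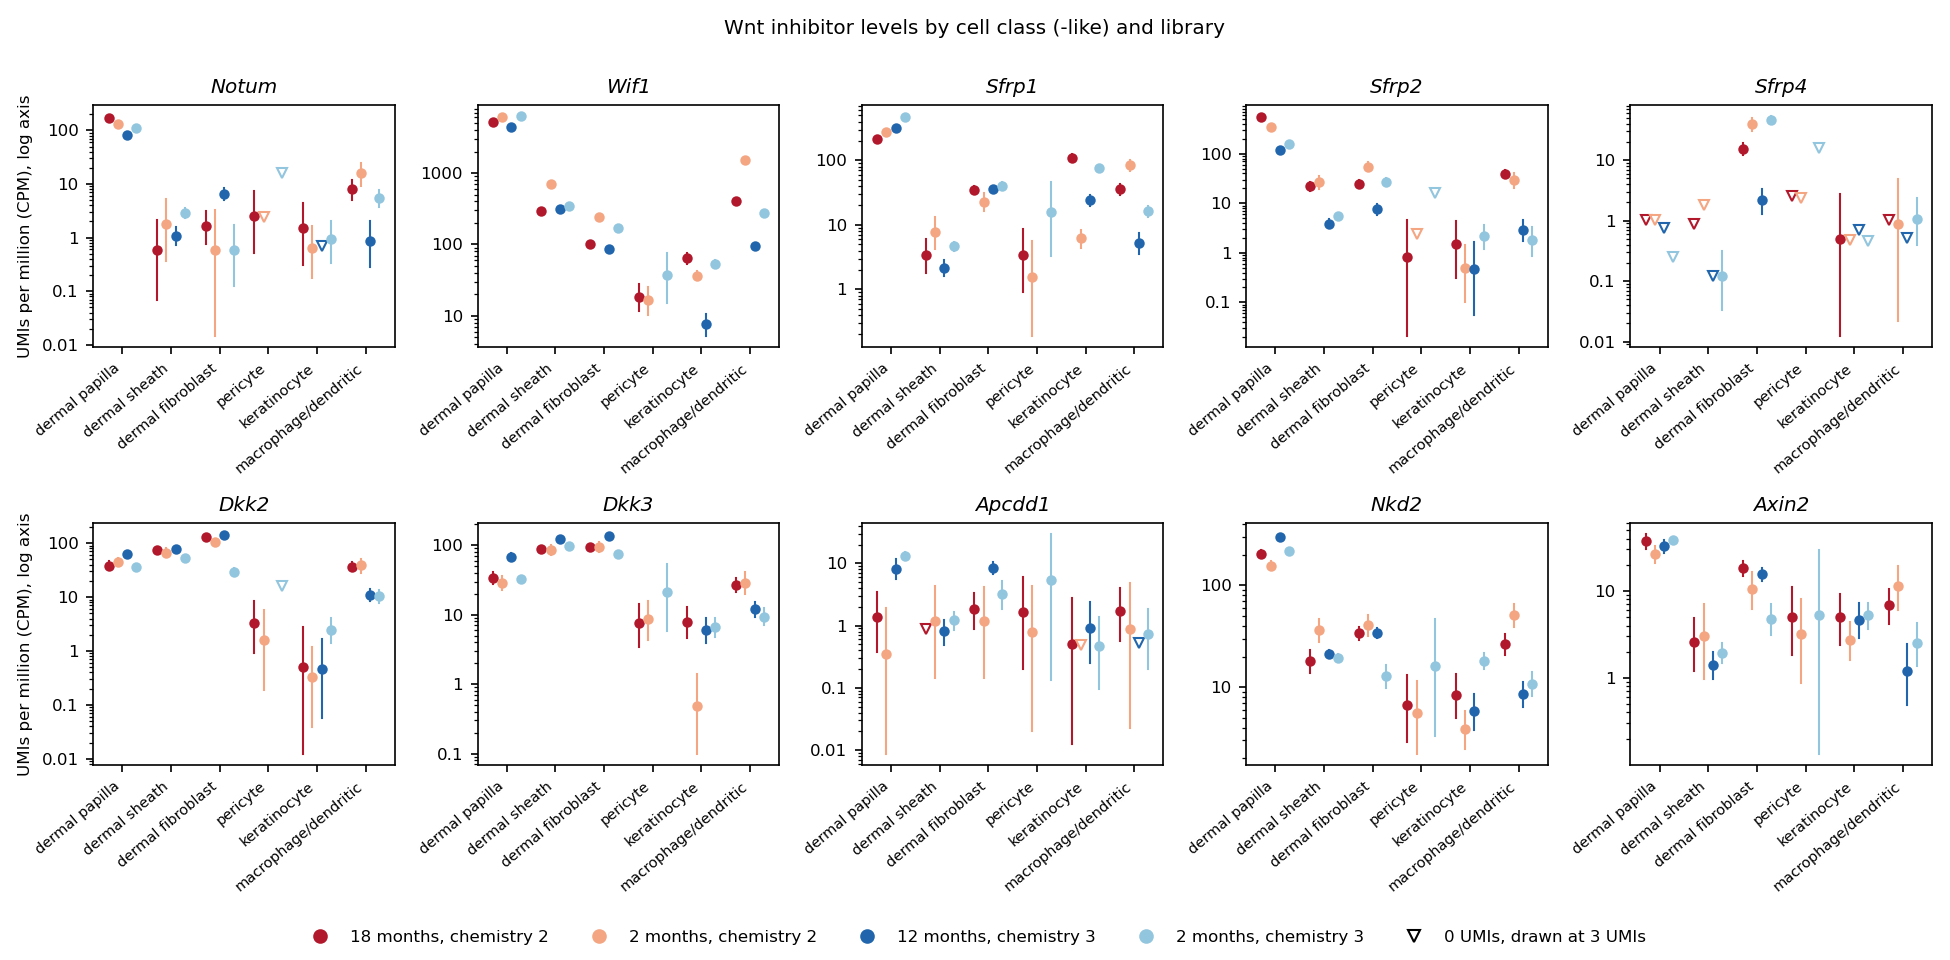
CPM of each of the 10 genes (y axis, log scale) in 6 cell classes (x axis); a point is 1 library, with its exact 95% Poisson interval as a line, and an open triangle marks 0 UMIs, drawn at the level of 3 UMIs. Classes with fewer than 20 cells in a library are left out. Wif1, Notum, Sfrp1, Sfrp2, Nkd2 and Axin2 are highest in dermal papilla-like cells in all 4 libraries, whereas Sfrp4 is at 0 there and highest in dermal fibroblast-like cells.

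The papilla-like cells held most UMIs of Notum, Wif1, Sfrp1, Sfrp2 and Nkd2. They held 91.6% of the Notum UMIs at 18 months and 93.5% at 2 months with chemistry 2, and 76.5% at 12 months and 90.4% at 2 months with chemistry 3. Their share of Wif1 UMIs was 83.1% and 82.4%, and 64.2% and 83.1%, in the same order, and their share of Sfrp2 UMIs was between 71.1% and 84.6%. Nkd2 was less concentrated, with 55.1% to 62.2% of its UMIs in the papilla, and 2-month arrector pili-like cells, which pull the hair upright, also had it, at 102 CPM with chemistry 2 and 108 CPM with chemistry 3. Sfrp4 was the exception: no UMI was counted in papilla-like cells of any library, where 3 UMIs would be 1.03 CPM at 18 months and 1.04 CPM at 2 months, and 0.769 CPM at 12 months and 0.255 CPM at 2 months, and dermal fibroblast-like cells held 95.1% to 100% of it.

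Papilla-like cells carried several members at once. The median cell had UMIs of 3 of the 10 genes in both chemistry 2 libraries and of 4 in both chemistry 3 libraries, and at least 3 members were seen in 75.5% of cells at 18 months and 74.3% at 2 months, and in 89.5% at 12 months and 90.2% at 2 months. Within a chemistry the older and the 2-month shares lay close together, and the deeper chemistry 3 libraries had the higher ones.

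Levels outside the papilla have to be set against RNA from other cells. Wif1 was found in macrophage and dendritic-like cells, which should not make it, at 404 CPM at 18 months and 1514 CPM at 2 months with chemistry 2, and at 96.3 CPM at 12 months and 276 CPM at 2 months with chemistry 3. After thinning each cell to 3000 UMIs, 25.1% and 62.3%, and 8.45% and 16.9%, of these cells had a Wif1 UMI, in the same order. Pericyte-like cells, the cells around small vessels, had only 18.5 CPM at 18 months and 16.6 CPM at 2 months, so classes that should lack Wif1 did not share a single level. Levels in sheath-like and fibroblast-like cells, other than those of Sfrp4, are therefore given beside those of macrophage and dendritic-like cells. The part of such RNA in them was not tested.

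Wif1, the most heavily counted member in the papilla, was at 5245 CPM at 18 months against 6075 CPM at 2 months with chemistry 2, and at 4473 CPM at 12 months against 6216 CPM at 2 months with chemistry 3. Both older libraries were below both 2-month libraries, with ratios of 0.863 (95% interval for counting 0.845 to 0.882) and 0.720 (0.708 to 0.732). The 14 papilla markers in these cells summed to 6624 CPM at 12 months against 8197 CPM at 2 months. With chemistry 2 they summed to 9987 CPM at 18 months against 9755 CPM at 2 months. The part of this marker level in the ratios of Wif1 and the other members in the papilla was not tested. Nearly every papilla-like cell had it, 92.9% at 18 months against 93.9% at 2 months with chemistry 2, and 93.8% at 12 months against 97.3% at 2 months with chemistry 3, at 3000 UMIs per cell. Across the 4 libraries the log2 change was -0.32 ± 0.21 (SE, older over 2 months) and did not pass edgeR's quasi-likelihood test with Benjamini-Hochberg adjustment (adjusted p = 0.618). Chemistry was a covariate in that test, which left 1 residual degree of freedom.

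Sfrp1 was also lower in the older library of each pair. It was at 219 CPM at 18 months against 278 CPM at 2 months, and at 320 CPM at 12 months against 473 CPM at 2 months, with ratios of 0.786 (0.707 to 0.873) and 0.677 (0.636 to 0.720). The log2 change of -0.43 ± 0.17 did not pass the adjusted edgeR test (adjusted p = 0.203).

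Notum, the Wnt lipase, and Sfrp2 had ratios above 1 in the chemistry 2 pair and below 1 in the chemistry 3 pair. Notum was at 169 CPM at 18 months against 130 CPM at 2 months (ratio 1.30, 1.13 to 1.49), but at 83.6 CPM at 12 months against 112 CPM at 2 months (0.744, 0.657 to 0.840). Sfrp2 was at 545 CPM at 18 months against 340 CPM at 2 months (1.60, 1.48 to 1.74), but at 121 CPM at 12 months against 160 CPM at 2 months (0.751, 0.678 to 0.832). Across both pairs edgeR gave Notum a log2 change of -0.01 ± 0.18 (adjusted p = 0.995) and Sfrp2 one of 0.17 ± 0.18 (adjusted p = 0.828). Age and chemistry cannot be told apart here, because the 18-month and 12-month libraries were made with different kits. The reporter strain and the Xist level also differed between the pairs, and they cannot be told apart from chemistry either.

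Of the intracellular inhibitors, Nkd2 had the more even pattern. Nkd2 was at 204 CPM at 18 months against 156 CPM at 2 months, and at 301 CPM at 12 months against 218 CPM at 2 months, higher in the older library of both pairs (ratios 1.30 and 1.38). Its log2 change of 0.45 ± 0.17 did not pass the adjusted edgeR test (adjusted p = 0.158). Axin2, read here as a pathway target, was at 37.4 CPM at 18 months against 26.3 CPM at 2 months (1.42, 1.05 to 1.93), and at 32.6 CPM at 12 months against 38.1 CPM at 2 months (0.855, 0.696 to 1.04). Apcdd1 was low, with 4 UMIs at 18 months against 1 at 2 months. With chemistry 3 it was at 8.21 CPM at 12 months against 13.2 CPM at 2 months (0.623, 0.412 to 0.916).

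Among the Dickkopf genes, Dkk3 was the 1 member called in papilla-like cells. It was at 34.0 CPM at 18 months against 28.7 CPM at 2 months (ratio 1.18, 0.874 to 1.60), and at 68.2 CPM at 12 months against 32.7 CPM at 2 months (2.08, 1.78 to 2.44). The 12-month library stood apart, and the other 3 lay close together. EdgeR gave a log2 change of 0.75 ± 0.21 (adjusted p = 0.0170), and of 11441 genes tested in this class 3.33% were called and 2.27% were called higher, beside 1 of 9 members tested (Sfrp4 did not pass the low-count filter). DESeq2 did not call it (adjusted p = 1.00), nor did edgeR with at least 1000 genes per cell (adjusted p = 0.218), with the looser cell filter (0.275), with chemistry left out (1.00) or with 12 months counted as young (0.998), and without the 12-month pair the log2 ratio was 0.24. Dkk3 was higher in sheath-like and fibroblast-like cells than in the papilla in every library, and the summed level of the 11 sheath markers in papilla-like cells was 1712 CPM at 12 months against 1435 CPM at 2 months, and 700 CPM at 18 months against 758 CPM at 2 months. The 17 fibroblast markers summed to 1349 CPM at 12 months against 1116 CPM at 2 months in these cells, and to 909 CPM at 18 months against 841 CPM at 2 months. The part of either list in the Dkk3 difference was not tested. Dkk2 was at 61.8 CPM at 12 months against 36.1 CPM at 2 months (1.71, 1.46 to 2.01) and at 38.1 CPM at 18 months against 44.3 CPM at 2 months (0.860, 0.661 to 1.12).

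By size alone, 0 of the 8 members with at least 20 UMIs in the chemistry 2 pair were 2-fold higher or lower at 18 months in the papilla, against 2.94% and 2.15% of all genes. At 12 months 1 of 9 was 2-fold higher (Dkk3) and 0 were 2-fold lower, against 2.41% and 4.35% of all genes. The median log2 change of the 9 members tested was 0.12, beside -0.01 for all genes tested.

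**Figure D2:**
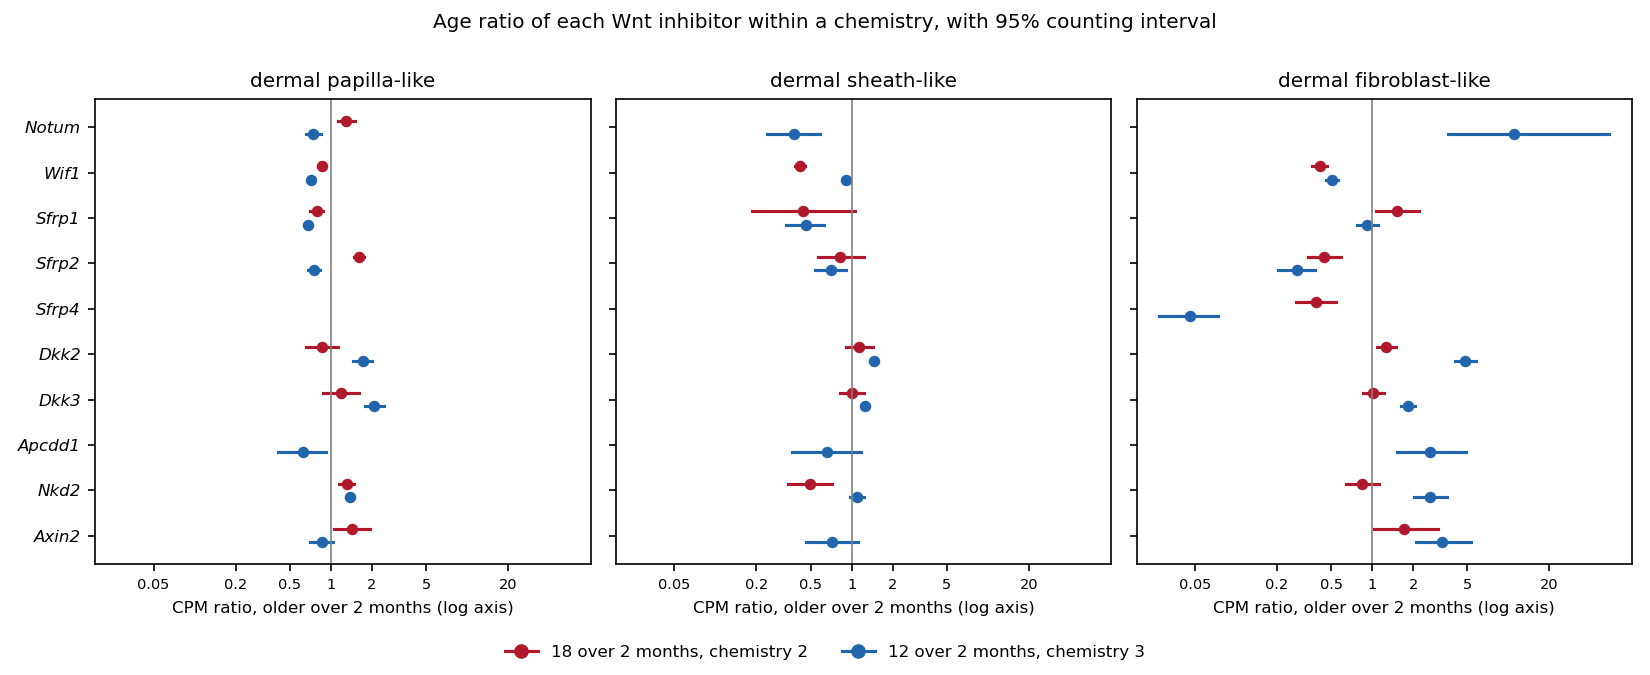
Ratio of CPM in the older library over the 2-month library of the same chemistry (x axis, log scale) for each gene (y axis) in 3 cell classes, with exact 95% counting intervals as lines; red points are 18 months, blue points are 12 months. Genes with fewer than 20 UMIs in a pair, or none in 1 library, are left out. In papilla-like cells most ratios lie between 0.677 and 1.71, with Notum and Sfrp2 on opposite sides of 1 in the 2 pairs.

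The levels of the family differed between papilla-like cells with and without Sox2, in the same order in each library for Wif1, Notum, Sfrp1, Sfrp2 and Dkk3. Sox2, a transcription factor known to mark the papillae of guard, awl and auchene hairs and not those of zigzag hairs, was detected in 62 of 473 papilla-like cells at 18 months (13.1%) and 75 of 525 at 2 months (14.3%), and in 44 of 408 at 12 months (10.8%) and 165 of 1119 at 2 months (14.7%). Sox2 was chosen for this split after the levels of the family had been seen, and it is also 1 of the 14 markers that name the class. The share of all genes with the same order in each library, or with ranges that do not overlap, was not worked out. Cells without a Sox2 UMI can still express it. The papilla markers Crabp1 and Fgf7 were present in both sets of cells, Crabp1 at 3095 CPM in cells with Sox2 and 2700 CPM in cells without it at 18 months. At 2 months with chemistry 3 Crabp1 was at 3105 against 1880 CPM. Hhip and Alpl were lower in cells with Sox2 in each library, at 354 against 481 CPM and 252 against 449 CPM at 18 months. Corin was higher in them in each library but the 12-month one, at 215 against 136 CPM at 18 months.

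Wif1 was lower in cells with Sox2 in all 4 libraries. It was at 1595 CPM in cells with Sox2 against 5881 CPM in cells without at 18 months, and at 1763 against 6857 CPM at 2 months with chemistry 2. With chemistry 3 it was at 1678 CPM in cells with Sox2 against 4926 CPM in cells without at 12 months, and at 2682 against 7065 CPM at 2 months. The 4 ratios lay between 0.257 and 0.380, and the ranges of cells with and without Sox2 did not overlap.

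Notum showed the same order, with ratios of 0.256 at 18 months and 0.0594 at 2 months, and of 0.277 at 12 months and 0.322 at 2 months. Its level in cells with Sox2 was 48.5 CPM at 18 months, 25.7 CPM at 12 months, and 9.02 CPM (4 UMIs) and 41.7 CPM at 2 months with chemistry 2 and 3. Frzb, a further secreted Frizzled-related protein, was also lower, with ratios between 0.272 and 0.421.

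Sfrp2 went the other way. It was at 1475 CPM in cells with Sox2 against 382 CPM in cells without at 18 months, and at 900 against 238 CPM at 2 months with chemistry 2. With chemistry 3 it was at 303 CPM in cells with Sox2 against 90.9 CPM in cells without at 12 months, and at 610 against 52.4 CPM at 2 months. Cells with Sox2 thus had 3.34-fold to 11.6-fold more Sfrp2. Dkk3 was higher in them in each library as well, with ratios of 2.15 at 18 months and 2.38 at 2 months, and of 1.43 at 12 months and 2.20 at 2 months. Sfrp1 was lower in cells with Sox2 in each library, with ratios between 0.554 and 0.867. At 18 months it was at 187 CPM in cells with Sox2, on 81 UMIs, against 224 CPM in cells without. Nkd2 had ratios between 0.722 and 1.09 and Axin2 between 0.579 and 1.06. With 4 libraries that all agree in sign, an exact two-sided sign-flip permutation test cannot give less than p = 0.125, and the ages were not treated as replicates.

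Cells divided by Notum showed the same relation with Sfrp2. Papilla-like cells with a Notum UMI had 250 CPM of Sfrp2 at 18 months against 735 CPM in cells without, and 91.2 against 464 CPM at 2 months with chemistry 2. With chemistry 3, Notum-positive cells had 68.5 CPM against 137 CPM at 12 months, and 125 against 178 CPM at 2 months. The median depth of cells with and without Notum was 6036 and 5572.5 UMIs at 18 months and 4921 and 5120 UMIs at 2 months, and 7564 and 8079 UMIs at 12 months and 7871.5 and 8705 UMIs at 2 months. For Sox2 the medians with and without were 6154.5 and 5746 UMIs at 18 months and 5358 and 4954.5 UMIs at 2 months, and 11579.5 and 7713 UMIs at 12 months and 10905 and 8062.5 UMIs at 2 months.

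**Figure D3:**
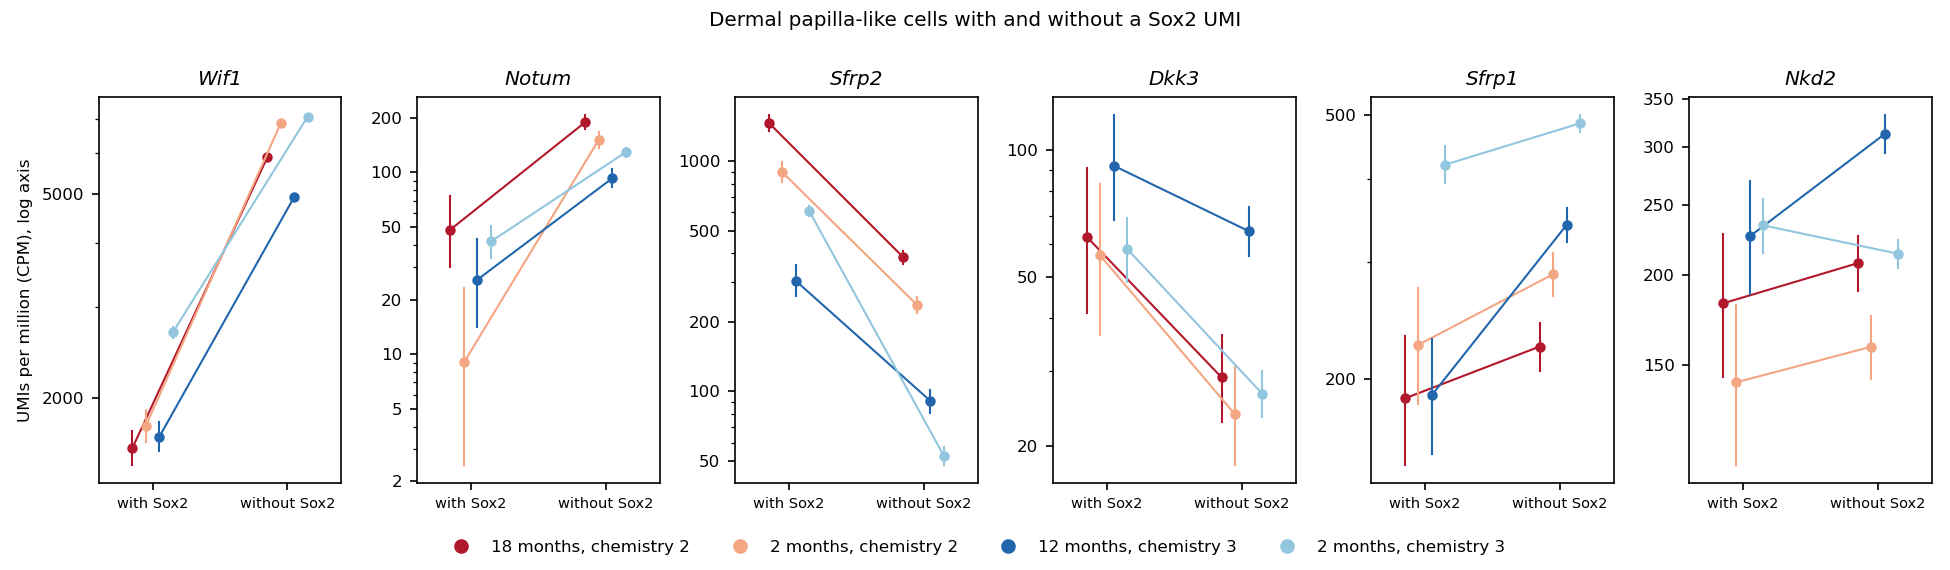
CPM (y axis, log scale) of 6 members in papilla-like cells with a Sox2 UMI (left) and without (right); each line joins the 2 sets of cells of 1 library, and vertical lines are exact 95% Poisson intervals. Wif1, Notum and Sfrp1 are lower and Sfrp2 and Dkk3 higher in cells with Sox2 in all 4 libraries.

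Within these subsets the age ratios of Wif1 were below 1, with an interval that reached 1 at 18 months in cells with Sox2. At 18 months the ratio was 0.905 (0.815 to 1.00) in cells with Sox2 and 0.858 (0.839 to 0.877) in cells without it. At 12 months it was 0.626 (0.583 to 0.671) in cells with Sox2 and 0.697 (0.685 to 0.709) in cells without it. Sfrp2 at 18 months was higher in both sets of cells, with ratios of 1.64 in cells with and 1.61 in cells without Sox2. At 12 months its ratio was 0.497 (0.420 to 0.584) in cells with Sox2 and 1.73 (1.499 to 2.004) in cells without, so the ratio lay above 1 in one set and below 1 in the other, while it was 0.751 over the class. Dkk3 at 12 months was higher in both, with ratios of 1.57 and 2.42.

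The clusters that made up the papilla-like class showed how unevenly the family was spread in the chemistry 2 libraries. At 2 months these cells fell into a cluster of 161 cells and one of 362 cells, cluster 9 and cluster 13. Cluster 9 had 1498 CPM of Wif1, 28.8 CPM of Notum and 998 CPM of Sfrp2, whereas cluster 13 had 8303 CPM of Wif1, 177 CPM of Notum and 23.3 CPM of Sfrp2. At 18 months 398 of 473 papilla-like cells lay in cluster 9, which there had 5379 CPM of Wif1, 199 CPM of Notum and 629 CPM of Sfrp2. Within cluster 9 the ratio at 18 months against 2 months was 3.59 for Wif1 and 6.91 for Notum, whereas the ratio of Wif1 over the whole class was 0.863, and for Sfrp2 it was 0.630 against 1.60 over the class. Ratios of the chemistry 2 pair in the papilla thus differed with the cells set side by side. In chemistry 3 nearly all papilla-like cells shared cluster 0, with 404 cells at 12 months and 1105 at 2 months, and the ratios within it, 0.723 for Wif1, 0.753 for Notum and 0.744 for Sfrp2, were close to those of the class.

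**Figure D4:**
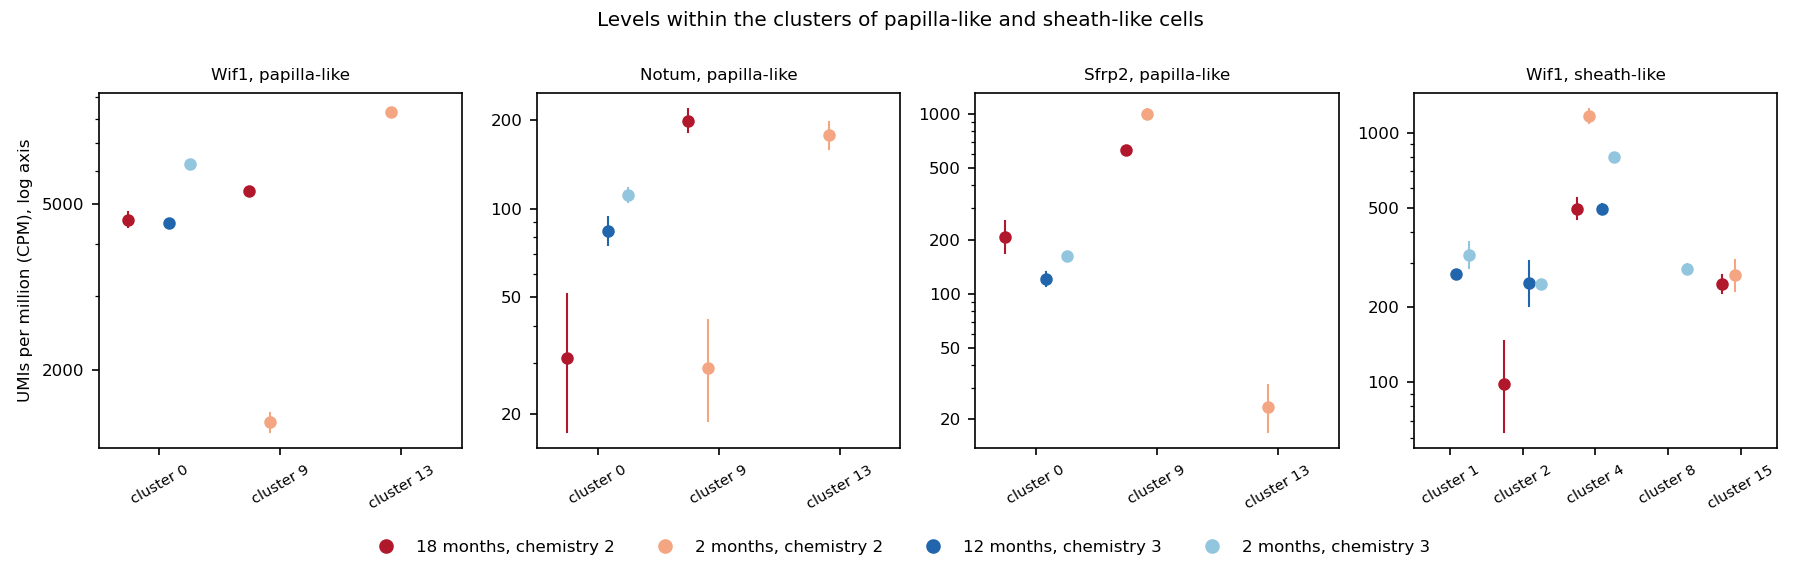
CPM (y axis, log scale) of Wif1, Notum and Sfrp2 in the 3 papilla-like clusters and of Wif1 in the 5 sheath-like clusters (x axis); a point is a library with at least 20 cells of the cluster, with its exact 95% Poisson interval. Clusters 9 and 13 at 2 months with chemistry 2 stand apart: cluster 9 has the lower Notum and the higher Sfrp2.

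In dermal sheath-like cells the members counted most were Wif1, Dkk3 and Dkk2. Dkk3 was at 87.7 CPM at 18 months against 86.8 CPM at 2 months, and at 124 CPM at 12 months against 98.2 CPM at 2 months, above the 26.8 and 28.9 CPM, and 12.0 and 9.40 CPM, of macrophage and dendritic-like cells. Dkk2 was at 75.6 CPM at 18 months against 66.3 CPM at 2 months (ratio 1.14, 0.910 to 1.44), and at 77.6 CPM at 12 months against 53.5 CPM at 2 months (1.45, 1.36 to 1.55). Its log2 change of 0.44 ± 0.14 just missed edgeR's adjusted threshold (adjusted p = 0.0530).

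Wif1 fell in sheath-like cells by the edgeR test, with a log2 change of -0.65 ± 0.13 (adjusted p = 0.000363), against 3.87% of 12577 genes called. It was at 294 CPM at 18 months against 703 CPM at 2 months (ratio 0.418, 0.384 to 0.455), and at 309 CPM at 12 months against 341 CPM at 2 months (0.907, 0.880 to 0.933), so the chemistry 3 pair was nearer to 1. The class lay in different clusters at the ages of that pair, with 1348 of 1775 cells in cluster 1 at 12 months, against 1212 and 569 of 2240 cells in clusters 2 and 8 at 2 months. Cluster 4, the only sheath-like cluster with over 100 cells in every library, had 496 CPM at 18 months against 1166 CPM at 2 months (0.425), and 495 CPM at 12 months against 802 CPM at 2 months (0.617). Wif1 in macrophage and dendritic-like cells moved with it (log2 change -1.40 ± 0.24, adjusted p = 0.0373 by edgeR, where 1.15% of 11504 genes were called; adjusted p = 0.110 without shared barcodes), and at 2 months with chemistry 2 those cells had 1514 CPM, more than the sheath-like cells. The call in sheath-like cells was lost with DESeq2 (adjusted p = 1.00), with at least 1000 genes per cell (0.293), with the looser cell filter (0.178), at the finer clustering (0.103) and with cells assigned by markers (0.821). With chemistry left out or 12 months counted as young, edgeR called 0 genes of the sheath-like class.

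Sfrp1 was the other member that fell in sheath-like cells (log2 change -1.10 ± 0.34, adjusted p = 0.0436 by edgeR). It was at 3.46 CPM at 18 months against 7.84 CPM at 2 months, and at 2.17 CPM at 12 months against 4.72 CPM at 2 months. These levels lay below those of macrophage and dendritic-like cells in each library, which were 36.0 and 84.1 CPM, and 5.16 and 16.3 CPM. Pericyte-like cells with chemistry 2 had 3.37 CPM at 18 months and 1.58 CPM at 2 months, and the part of RNA from other cells was not tested. The call was lost with DESeq2 (adjusted p = 1.00), RLE size factors (0.0701), at least 1000 genes per cell (0.579), the looser filter (0.489), the finer clustering (0.179), cells assigned by markers (0.601) and without shared barcodes (0.0649). Of the 9 members tested (Sfrp4 was too low), 2 fell and 0 rose, beside 1.27% of all genes called lower and 2.6% higher. The median log2 change of the 9 members was -0.38, beside 0.00 for all genes tested. By size, 3 of 6 members (Wif1, Sfrp1 and Nkd2) were 2-fold lower at 18 months, against 2.1% of all genes. At 12 months 2 of 9 (Sfrp1 and Notum) were 2-fold lower, against 2.54%. In both pairs 0 were 2-fold higher, against 2.22% and 2.03%. Of the 92 Notum UMIs in sheath-like cells at 2 months with chemistry 3, 78 came from 1 cell, and the ratio of 0.381 became 2.50 without the barcodes shared by both libraries.

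Dermal fibroblast-like cells were the site of Sfrp4 and, beside the sheath, of Dkk2 and Dkk3. Sfrp4 was at 15.4 CPM at 18 months against 39.8 CPM at 2 months (ratio 0.387, 0.277 to 0.540), and at 2.17 CPM at 12 months against 47.0 CPM at 2 months (0.0462, 0.0273 to 0.0738). It sat mainly in cluster 14, led by Gpx3, Igfbp6 and Clec3b, which held 33 of 714 fibroblast-like cells at 18 months and 39 of 227 at 2 months, and 42 of 713 at 12 months and 214 of 427 at 2 months. Within that cluster Sfrp4 was at 381 CPM at 18 months against 137 CPM at 2 months (2.78, 1.89 to 4.13), and at 61.1 CPM at 12 months against 106 CPM at 2 months (0.578, 0.331 to 0.946). At 18 months 1 cell held 41 of the 84 Sfrp4 UMIs of the class. The class-wide ratio at 18 months was on the other side of 1 from the ratio within the cluster, and the share of cells in the cluster differed between the ages. Markers of some other cell types in fibroblast-like cells were also lower at the older age, and others were higher. The 6 melanocyte markers summed to 57.0 CPM at 18 months against 3538 CPM at 2 months, and to 61.5 CPM at 12 months against 717 CPM at 2 months. The 10 endothelial markers summed to 531 CPM at 18 months against 1788 CPM at 2 months, and to 387 CPM at 12 months against 1467 CPM at 2 months. The 14 macrophage and dendritic markers summed to 557 CPM at 18 months against 618 CPM at 2 months, and to 239 CPM at 12 months against 3790 CPM at 2 months. The 9 pericyte markers went the other way, at 483 CPM at 18 months against 203 CPM at 2 months, and 251 CPM at 12 months against 147 CPM at 2 months. The 14 papilla markers were at 572 CPM at 18 months against 713 CPM at 2 months, and at 536 CPM at 12 months against 381 CPM at 2 months. The 17 fibroblast markers summed to 23761 CPM at 18 months against 11828 CPM at 2 months, and to 22255 CPM at 12 months against 17124 CPM at 2 months. The part of these lists in the fibroblast-like values was not tested.

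The make-up of the class by cluster differed between the ages for other members too. Dkk2 was at 132 CPM at 18 months against 104 CPM at 2 months (1.27, 1.08 to 1.51), and at 139 CPM at 12 months against 29.0 CPM at 2 months (4.79, 4.03 to 5.74). Clusters 7 and 12, where Dkk2 was at 102 to 226 CPM, held 488 of 713 fibroblast-like cells at 12 months and 56 of 427 at 2 months with chemistry 3, and within cluster 12 the Dkk2 ratio was 1.55 (1.17 to 2.09). Sfrp2 was at 24.6 CPM at 18 months against 55.1 CPM at 2 months, and at 7.54 CPM at 12 months against 27.0 CPM at 2 months (0.446 and 0.279). Axin2 was at 18.2 CPM at 18 months against 10.5 CPM at 2 months, and at 15.6 CPM at 12 months against 4.80 CPM at 2 months (1.72 and 3.26).

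None of the 9 members tested (Notum did not pass the low-count filter) in fibroblast-like cells passed edgeR's adjusted threshold, which called 0.0847% of 11813 genes (10 genes, beside 1325 whose unadjusted p was under 0.05 and 165 by DESeq2). The unadjusted p was under 0.05 for Wif1 (log2 change -1.06 ± 0.16, adjusted p = 0.102), Sfrp2 (-1.42 ± 0.24, 0.130), Axin2 (1.35 ± 0.31, 0.216), Sfrp4, Dkk2 and Apcdd1. Wif1 in these cells, at 101 CPM at 18 months against 246 CPM at 2 months and 86.7 CPM at 12 months against 171 CPM at 2 months, lay below macrophage and dendritic-like cells in every library. By size, 3 of 8 members were 2-fold lower and 0 higher at 18 months, against 5.52% and 4.08% of all genes, and at 12 months 5 of 10 were 2-fold higher and 2 lower, against 3.25% and 7.86%. The melanocyte, endothelial, macrophage and pericyte markers given above also differed between the ages in these cells, and their part was not tested.

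Over all kept cells edgeR made 0 calls among 15459 genes (1703 had an unadjusted p under 0.05), whereas DESeq2 made 384. At 12 months 5 of 10 members were 2-fold lower over all kept cells and 0 higher, against 6.75% and 3.57% of all genes, with Notum at a ratio of 0.404, Sfrp1 at 0.374, Sfrp2 at 0.408, Wif1 at 0.428 and Sfrp4 at 0.107. At 18 months 2 of 10, Dkk2 and Apcdd1, were 2-fold higher and 0 lower, against 8.24% and 6.21%. The 12-month library also had fewer papilla-like cells (10.3% against 20.8%), and in a sum over all cells a lower share of such cells and less RNA per cell cannot be told apart. Within papilla-like cells Notum, Sfrp1, Sfrp2 and Wif1 were at ratios of 0.744, 0.677, 0.751 and 0.720 at 12 months. Dkk2 and Dkk3 were higher over all cells in both pairs, with ratios of 2.16 and 1.91 at 18 months and 1.88 and 1.59 at 12 months. Fibroblast-like cells were 29.4% of kept cells at 18 months against 13.5% at 2 months, and 18.0% at 12 months against 7.92% at 2 months.

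Outside the mesenchyme, Sfrp1 was counted in keratinocyte-like cells, mainly in cluster 19, led by Krt5, Krt15 and Krt14. There it was at 291 CPM at 18 months against 51.0 CPM at 2 months, and at 61.5 CPM at 12 months against 281 CPM at 2 months, on 51 against 26 cells and 71 against 83 cells. The keratinocyte-like class as a whole was split between clusters that differed by library, and edgeR made 0 calls among 10565 genes in it (496 had an unadjusted p under 0.05), whereas DESeq2 made 10.

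The genes with the most similar pattern were found by Pearson's r of log2(CPM + 1) over the 31 combinations of class and library with at least 20 cells. These points share libraries and depth, and the values are a description. Wif1 was closest to Frzb (0.965), Frem1 and Ptch1, Notum to Lingo2 (0.947), Khdrbs2 and Dnali1, and Sfrp2 to Gm26771 (0.938), Mdk and Lrrn2. Dkk3 was closest to Gpc3 (0.95), Gpr153 and Ctsk, and Dkk2 to Fam174b (0.906), Fam171a1 and Dchs1. Nkd2 was closest to Fgf7 (0.904), a growth factor of the papilla, Fst and Emc8, and Sfrp1 to Dio2 (0.886), Pappa and Ephb1. Sfrp4 was closest to Mmrn1 (0.922), Inmt and Mlana, and Apcdd1 to Pcdh10 (0.797), Bcl9l and Irx1.

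The rest of the pathway was read from lists of other inhibitors, ligands, receptors, core components and targets. Among papilla-like cells 3 of these genes fell by the edgeR test and 0 rose: the receptor Fzd10 (log2 change -1.15 ± 0.26, adjusted p = 0.000591), the R-spondin Rspo2, which amplifies Wnt signalling (-0.69 ± 0.18, 0.00416), and the inhibitor Draxin (-0.74 ± 0.22, 0.0263). The counts were 1 of 15 other inhibitors tested, 0 of 9 ligands, 2 of 20 genes for secretion and receptors, 0 of 18 core genes and 0 of 12 targets, and for all genes 1.06% were called lower. The list medians lay between -0.08 and 0.12. DESeq2 called none of the 3, and Rspo2 and Draxin were also lost with at least 1000 genes per cell.

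Sheath-like cells had 3 lower and 3 higher genes. The bone morphogenetic protein and Wnt antagonists Sost (-1.76 ± 0.40, 0.00175) and Sostdc1 (-0.92 ± 0.15, 2e-06) were lower, as was the ligand Wnt5a (-0.48 ± 0.14, 0.0232). The receptor Fzd1 (0.44 ± 0.13, 0.0402), the pseudoreceptor Bambi (0.69 ± 0.19, 0.0162) and Myc (0.98 ± 0.21, 0.000460) were higher. They were 2 of 19 other inhibitors, 1 of 9 ligands, 1 of 24 secretion and receptor genes, 0 of 18 core genes and 2 of 14 targets, beside 2.6% of all genes called higher and 1.27% lower. DESeq2 called none of the 6, and the finer clustering and the marker-based classes lost all 6 as well. The log2 change of Sostdc1 ranged from -2.16 to 0.39 when 1 library was left out. Those fits had no chemistry term, so their range mixes chemistry with age. No listed gene was called in fibroblast-like or keratinocyte-like cells or over all cells. In fibroblast-like cells the largest 2-fold ratios in the same direction in both pairs were those of Sfrp5, Sostdc1 and Lgr5, with Lgr5 at 80.5 CPM at 18 months against 6.45 CPM at 2 months and at 9.02 CPM at 12 months against 3.60 CPM at 2 months. In keratinocyte-like cells Ror1 was the 1 such gene, with ratios of 4.60 and 2.64 on at most 7 UMIs in a library, and over all cells they were Sp5, Dkkl1 and Fzd10, with Dkkl1 at 14.5 CPM at 18 months against 90.2 CPM at 2 months and at 7.72 CPM at 12 months against 17.5 CPM at 2 months. Macrophage and dendritic-like cells had lower Wnt5a and Fst beside Wif1, with log2 changes of -1.49 ± 0.26 (adjusted p = 0.0437) and -1.62 ± 0.25 (0.0344). EdgeR called 0 genes in this class, at a false discovery rate of 0.05, without the shared barcodes, with marker-based classes, with chemistry left out and with 12 months counted as young (1345, 1529, 149 and 581 genes had an unadjusted p under 0.05), and Wnt5a was also not called with doublets kept. Without the 2-month chemistry 2 library the log2 changes were 0.30 for Wnt5a and 0.19 for Fst, in a fit with no chemistry term.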

How the data were processed

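The deposited gene-by-cell matrices hold whole-number UMI counts made by the authors, with Cell Ranger 2.0.1, STAR, Seurat 2.1.0 and the mm10 genome, with GRCm38.p5, per the submitters' processing notes; the chemistry 3 matrices name software version 3.0.1, per the file headers. The role of each tool is not given in the sources used here. Cells were dropped below 500 genes, below 1000 UMIs or from 10% mitochondrial UMIs upward, and the 3% with the highest Scrublet doublet scores were removed per library. Clusters (scanpy 1.11.5, 2000 variable genes without the Wnt genes, scaled per library, 30 components, 15 neighbours, Leiden resolution 0.5) were named from marker lists. UMIs were summed per class and library and given as CPM, with exact Poisson intervals, exact conditional intervals for ratios and Clopper-Pearson intervals for shares (95%). Intervals cover counting error only. Shares of cells were taken after thinning to 3000 UMIs. A group at 0 was given a floor of 3 UMIs.

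Both older libraries were tested against both 2-month libraries with edgeR 4.0.16 (quasi-likelihood, TMM, chemistry as covariate, 1 residual degree of freedom, Benjamini-Hochberg at 0.05), with DESeq2 1.42.0 as an alternative. The edgeR test was also run on simulated counts. These gave every gene the same dispersion, so they cannot show how the test behaves on these libraries. P-values measure only the spread between these libraries, which may be technical. With 1 residual degree of freedom, the SEs and p-values rest largely on variance shared across genes and less on each gene's own spread. All 10 members were named; of the other Wnt lists, genes passing the test, or, where none did, the 3 with the largest ratio of at least 2-fold in the same direction in both pairs with at least 20 UMIs summed over the 4 libraries. Members and lists were chosen with earlier results of these data known. The median log2 ratio of all genes was 0.12 at 18 months and -0.11 at 12 months over all cells, 0.32 for keratinocyte-like cells at 18 months, and -0.30 for macrophage and dendritic-like cells in both pairs. It was within 0.1 of 0 in the papilla, sheath and fibroblast classes. The genes most like Axin2 in pattern are not reported here.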

Additional observations from a re-analysis of the deposited data

Results flagged for a closer look

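These results were picked out because the counting intervals of the ratios lay on opposite sides of 1 in the 18-month pair (chemistry 2) and the 12-month pair (chemistry 3), each against 2 months. The difference between the pairs was not tested, since each rests on 1 library per age. In papilla-like cells the ratio of Notum was 1.30 at 18 months and 0.744 at 12 months, and that of Sfrp2 was 1.60 and 0.751. In keratinocyte-like cells, whose clusters differed by library, Sfrp1 had ratios of 17.6 at 18 months and 0.310 at 12 months, Wif1 of 1.74 and 0.142, and Nkd2 of 2.17 and 0.320. Wif1 there was at 64.1 and 36.8 CPM, and 7.69 and 54.1 CPM, below macrophage and dendritic-like cells in each library. Nkd2 rested on 17 and 24 UMIs in the chemistry 2 pair. Of all genes with at least 20 UMIs in this class, 19.3% were 2-fold higher at 18 months and 4.55% were 2-fold lower at 12 months. Over all kept cells Sfrp2 had ratios of 1.39 at 18 months and 0.408 at 12 months, Apcdd1 of 2.51 and 0.714, and Axin2 of 1.53 and 0.698. The share of papilla-like cells was 19.5% at 18 months against 31.3% at 2 months, and 10.3% at 12 months against 20.8% at 2 months. Its part in the ratios over all cells was not tested.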

How the results depend on the processing

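Libraries were not paired by replicate number, because each older group shares only number 1 with the 2-month group, a number that serves as a name. The main edgeR fit pairs 1 older and 1 2-month library within each chemistry, through its chemistry term. The number of genes called moved with the settings, and the cause was not tested. In papilla-like cells 381 became 72 with DESeq2, 0 with chemistry left out, 0 with 12 months counted as young, 241 with at least 1000 genes per cell and 220 with the looser cell filter. In sheath-like cells 487 became 82 with DESeq2, 0 with chemistry left out, 0 with 12 months counted as young, 139 with at least 1000 genes, 209 with the looser filter, 304 with no doublets removed, 249 at the finer clustering and 81 with marker-based classes. In fibroblast-like cells 10 became 165 with DESeq2, 385 with no filter on low counts, 0 with chemistry left out, 0 with 12 months counted as young, 237 with at least 1000 genes, 203 with the looser filter, 153 with no doublets removed, 152 at the finer clustering, 443 with marker-based classes and 32 without shared barcodes. In macrophage and dendritic-like cells 132 became 79 with RLE size factors, 611 with no filter, 0 with chemistry left out, 0 with 12 months counted as young, 349 with at least 1000 genes, 236 with the looser filter, 0 with marker-based classes and 0 without shared barcodes. In keratinocyte-like cells 0 became 10 with DESeq2, 30 with no filter and 73 with 12 months counted as young, and over all cells 0 became 384 with DESeq2 and 1 with no filter.

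Leaving out 1 library at a time (without the chemistry term for calls) gave 3 to 31 calls in papilla-like, 0 to 0 in sheath-like, 0 to 131 in fibroblast-like, 0 to 32 in keratinocyte-like cells, 0 to 0 for macrophage and dendritic-like cells and 0 to 0 over all cells. The log2 changes of these fits also lacked the chemistry term, so their ranges mix chemistry with age. In papilla-like cells the log2 change ranged from -0.48 to 0.47 for Notum, -1.005 to 1.12 for Sfrp2 and -1.67 to 0.11 for Rspo2. It ranged from -2.16 to 0.39 for Sostdc1 in the sheath. For macrophage and dendritic-like cells the ranges were -2.99 to 0.25 for Wif1, -3.38 to 0.19 for Fst and -3.12 to 0.30 for Wnt5a.

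Notum in papilla-like cells had a log2 change of -0.01, and of 0.0087 with DESeq2, 0.0061 with RLE, 0.072 with chemistry left out, 0.35 with 12 months counted as young, 0.090 with at least 1000 genes, 0.10 with the looser filter and 0.024 with no doublets removed. The 95 pair ratios were recomputed under the alternatives, and a change of side of 1 was looked for only where the main counting interval excluded 1. Among those, 5 values changed side. In sheath-like cells they were Nkd2 at 18 months (1.04, marker-based classes), Notum at 12 months (2.50 without shared barcodes and 4.13 as a mean over cells) and Sfrp2 at 12 months (1.22, finer clustering). The last was Sfrp2 over all cells at 18 months (0.982 as a mean over cells). Of the other values, 651 lay within the counting interval of the main ratio and 103 lay outside it. Values of ratios whose interval included 1 can lie on the other side of 1 in either group. The alternatives without shared barcodes, within clusters and within cells with or without Sox2 were chosen after seeing the data. One library per age and chemistry limits every age comparison.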
